A study of Bos taurus with 8 samples.

Results

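Granulosa cells line the ovarian follicle. FOXL2, GATA4, GATA6, ZFPM2, WT1, SOX4, SOX9, LHX9 and EMX2 are transcription factors, or in ZFPM2 a partner of one. These factors act in the forming gonad or in the identity of granulosa or Sertoli cells. They were taken by name, with each array probe that the platform annotation assigns to one of these symbols. Of 43794 gene probes on the arrays, which stand for 15216 named genes and many unnamed ones, 9 matched, for 7 of the 9 symbols: 3 probes for WT1 and 1 each for FOXL2, GATA4, SOX4, SOX9, LHX9 and EMX2. GATA6 and ZFPM2 are not analysed here. All 9 probes passed the filter on dim signals, which asked for a raw signal over the 95th percentile of the negative controls in the FSH or the control channel of 4 or more arrays. A probe could thus pass through either kind of culture.

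The FSH cultures were bovine granulosa cells kept for 48 h, with follicle-stimulating hormone at 1 ng/ml during the last 4 h. The control cultures were kept for the same 48 h without the hormone. All cells came from slaughterhouse ovaries, from follicles of 2 to 6 mm that were dissected singly, and the labels state neither the age nor the breed of the animals. The labels give an n of 4 with each biological replicate, in wording that leaves unclear whether follicles or ovaries are meant. Amplified RNA of 1 FSH and 1 control culture was hybridised together on each array. Arrays with the same replicate number carry the dyes in opposite order and were taken as dye swaps of the same RNA, which gives 4 replicates. Whether same-numbered FSH and control cultures came from the same ovaries is not stated in the labels, so the pairing by number is an assumption.

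GATA factors are zinc-finger proteins that bind GATA motifs and, in granulosa cells, act on genes of steroid synthesis and inhibin; ZFPM2 (FOG2) binds GATA4 and modifies what it does. FOXL2 is a forkhead factor that keeps granulosa cells from turning into Sertoli-like cells in the adult mouse ovary, and SOX9, the factor that drives Sertoli cell formation, is the gene it holds down there. WT1, LHX9 and EMX2 are needed in mice for the gonad to form at all. SOX4 belongs to the SOXC group of HMG-box factors, which act in the embryonic gonad and in many other progenitor tissues. FSH raises cAMP in granulosa cells and through it changes transcription within hours.

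Depth on an array is set by signal over background. Between 71.4% and 84.2% of gene probes exceeded the negative controls in any 1 channel, and the median raw intensity was 1.27 to 1.38 times that of the negative controls, so ratios of dim probes are compressed. Granulosa markers fixed as a list were detected in full: 10 of 10, among them FSHR, CYP19A1, INHA and AMH, in every channel. Their summed level was 17.12 to 17.29 in FSH cultures and 16.94 to 17.32 in control cultures (log2 intensity). Replicate 3 stands apart. NR4A1, an immediate-early gene of the cAMP response, had log2 ratios of FSH over control of 3.22, 4.37, 0.13 and 4.10 in replicates 1 to 4. The library labelled control in replicate 3 held it at 14.88, against 10.91 to 11.24 in the other control libraries and 14.46 to 15.28 in the FSH libraries. Over probes with a mean above 9 log2 intensity, ratios of replicate 3 correlated with those of the others at -0.12 to 0.30. Among replicates 1, 2 and 4 the correlations were 0.43 to 0.72. The ratio of each member is therefore given with and without replicate 3. The number of arrays limits the precision. The labels speak of biological replicates but do not say that cultures of different numbers came from separate animals. The p-values thus cover only the spread among the samples at hand, which may leave out the spread between animals.

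In cultures with FSH, SOX4 was 2.14-fold higher and GATA4 was at 0.666 times the control level, each in the same direction in all 4 replicates and on all 8 arrays. EMX2, the third member with a signal clearly above background, showed no shared direction. The probes of FOXL2, WT1, SOX9 and LHX9 lay close to the negative controls in both kinds of culture. No clear difference was seen in them, which does not show that there was none, since ratios are compressed at this signal. Of the 9 probes, 0 passed an adjusted p of 0.05 in limma's fit to the 4 replicate means (Benjamini-Hochberg over all tested probes), and of the 36531 probes tested 0% did. At an unadjusted p below 0.05 the fit held SOX4 and GATA4, 2 of 9 probes, against 12.2% of all probes (4441). A fit to all 8 arrays, with a dye term and a random block for each replicate, called 1 of 9, SOX4, against 3.41% of all probes (1244). That fit sets 1 correlation, 0.72, between same-numbered arrays for all probes. Same-numbered SOX4 ratios agreed closely, at 0.65 and 0.78, 1.51 and 1.47, 0.53 and 0.72, and 1.47 and 1.63. For such a probe the 2 dye orders count partly as separate replicates, so the adjusted p can be too small. The same limit may hold for each call of that fit below.

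**Figure D1:**
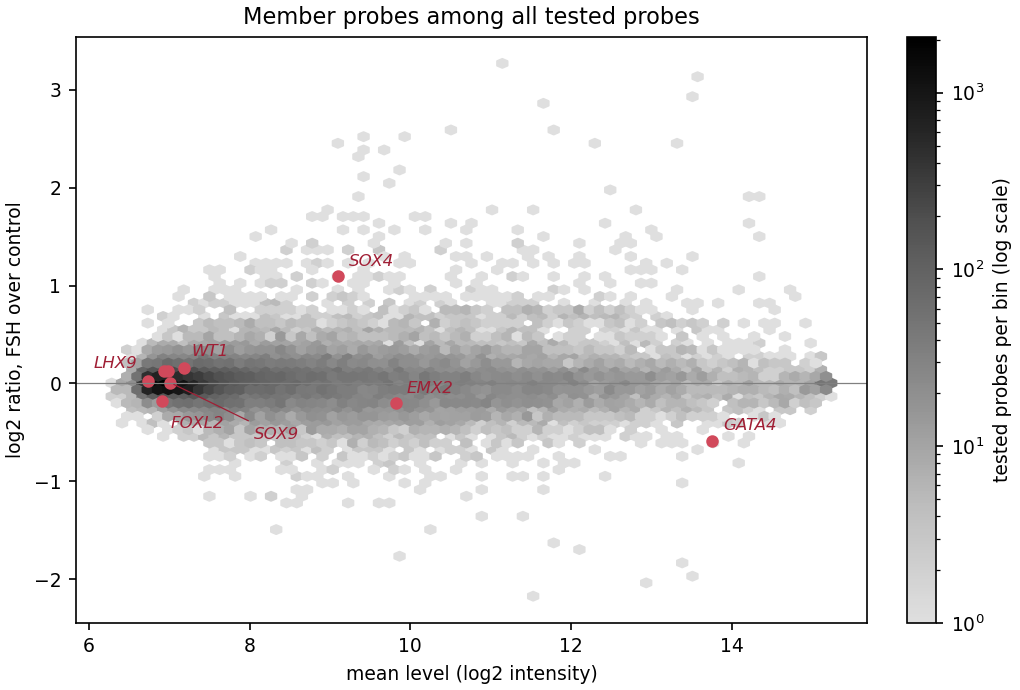
Log2 ratio of FSH over control (vertical axis) against mean level in log2 intensity (horizontal axis), with tested probes as grey bins shaded by number and the 9 member probes as red points. SOX4 lies at 1.10 and GATA4 at -0.59, while the 6 dim member probes sit between -0.18 and 0.15 where most probes on the arrays lie.

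SOX4, the SOXC factor, had levels of 9.32, 9.04, 10.38 and 9.87 log2 intensity in FSH replicates 1 to 4, against 8.60, 7.55, 9.76 and 8.32 in control replicates 1 to 4. The FSH culture was above the control culture of its own number in every replicate. The groups overlapped, since the control library of replicate 3 exceeded the FSH libraries of replicates 1 and 2. The mean level was 9.65 ± 0.598 in FSH cultures and 8.56 ± 0.917 in control cultures (SD, n = 4 each).

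The log2 ratio of FSH over control for SOX4 was 0.72, 1.49, 0.62 and 1.55 in replicates 1 to 4. Replicates 2 and 4 had the larger ratios and replicates 1 and 3 the smaller ones. The mean was 1.10 ± 0.20 (SE, n = 4), with a 95% interval of 0.58 to 1.61 and an adjusted p of 0.230 in limma. With the replicate block and dye term the SE was 0.15 and limma's adjusted p was 0.0125. Without replicate 3 the ratio was 1.25 (adjusted p = 0.124 over replicate means, 0.00655 with the block and dye term, a setting chosen after the data were seen).

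The dye term of SOX4 was not called (adjusted p = 0.127 in limma). The ratio averaged 1.04 on the arrays with FSH in Cy5 and 1.15 on those with FSH in Cy3. Raw SOX4 intensity was 3.16 to 8.67 times the negative control threshold in FSH channels (median 5.49), against 1.39 to 5.18 times in control channels (median 2.51), so the lowest control values were not far above background.

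SOX4 also differed widely from culture to culture. Its level spanned 2.84 on the log2 scale over the 8 cultures, a 7.14-fold range, where the median range of the 8799 tested probes with a mean above 9 log2 intensity was 0.76; 3.59% of those probes had a wider range. The SD over the 4 control cultures was 0.917, against a median of 0.250 among the same probes, and 4.47% had a larger one. Replicate 3 held the highest level in both kinds of culture and replicate 2 the lowest. The range ran from control replicate 2 to FSH replicate 3, so it includes the difference between FSH and control. The control SD includes control replicate 3, at 9.76 against 8.60, 7.55 and 8.32 in control replicates 1, 2 and 4. No range or SD without replicate 3 is given. The size of the ratio exceeded that of all but 1.35% of the 8799 probes. SOX4 passed the limit of 9 only through its FSH cultures, with a mean of 9.65 against 8.56 in control cultures. These shares therefore describe SOX4 and are no support for a difference.

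**Figure D2:**
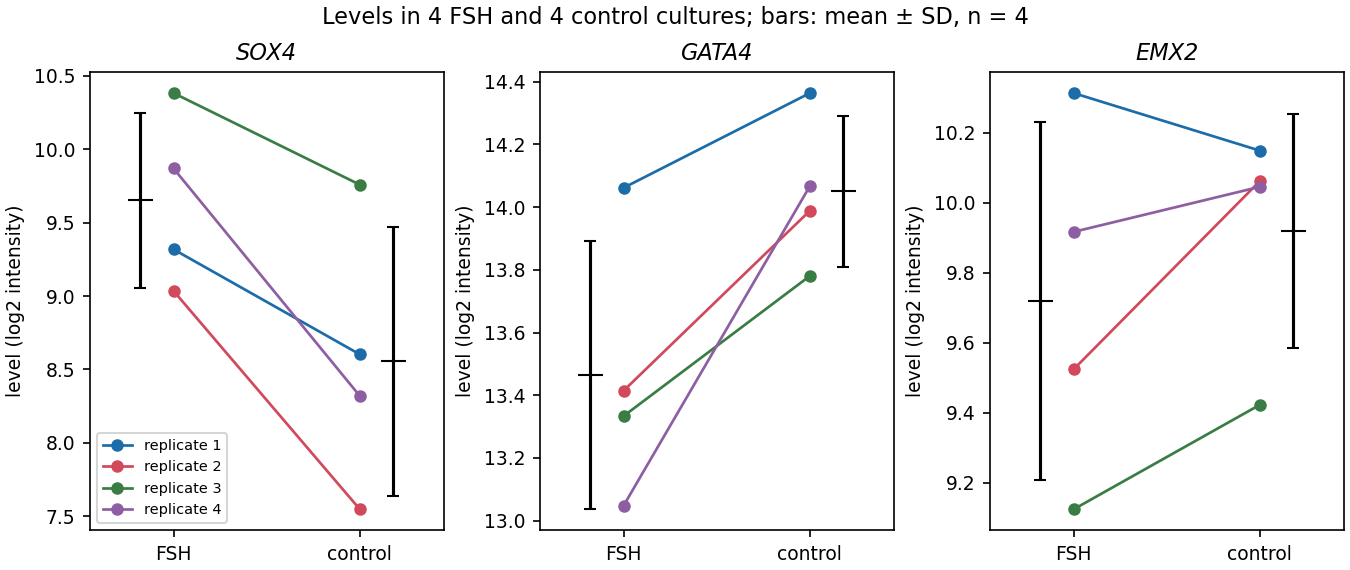
Level in log2 intensity of SOX4, GATA4 and EMX2 in FSH cultures (left) and control cultures (right) of each panel, with 1 point per culture, lines joining cultures of the same replicate number, and bars for mean ± SD (n = 4). SOX4 lines run down to the control side in all 4 replicates, GATA4 lines run up in all 4, and EMX2 lines run up in 3 and down in replicate 1; the vertical axes differ between panels and do not start at 0.

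GATA4, the zinc-finger factor that works with ZFPM2, had levels of 14.06, 13.41, 13.33 and 13.05 log2 intensity in FSH replicates 1 to 4, against 14.36, 13.99, 13.78 and 14.07 in control replicates 1 to 4. Each FSH culture was below the control culture of its own number. The groups overlapped only through replicate 1, whose FSH culture lay above the control cultures of replicates 2 and 3. The mean was 13.46 ± 0.428 in FSH cultures and 14.05 ± 0.242 in control cultures (SD, n = 4 each).

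The log2 ratio of FSH over control for GATA4 was -0.30, -0.57, -0.45 and -1.02 in replicates 1 to 4, so replicate 4 had the largest decrease. The mean was -0.59 ± 0.13 (SE, n = 4), with a 95% interval of -0.92 to -0.25 and an adjusted p of 0.269 in limma. With the replicate block the adjusted p was 0.0595 with a dye term and 0.0267 without one, so this call depends on the dye term. Without replicate 3 the ratio was -0.63 (adjusted p = 0.204). Without replicate 4 it was -0.44, the smallest value of the fits that leave out 1 replicate.

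The ratio of GATA4 averaged -0.71 with FSH in Cy5 and -0.46 with FSH in Cy3. Its dye term lay just short of the threshold (adjusted p = 0.0556 in limma). The probe was bright, above 98.4% of the tested probes in mean intensity, with raw signals of 44.9 to 145 times the negative control threshold in FSH channels (median 73.2) and 64.0 to 140 times in control channels (median 90.2). Among the 8799 bright probes 7.32% had a larger ratio in size.

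**Figure D3:**
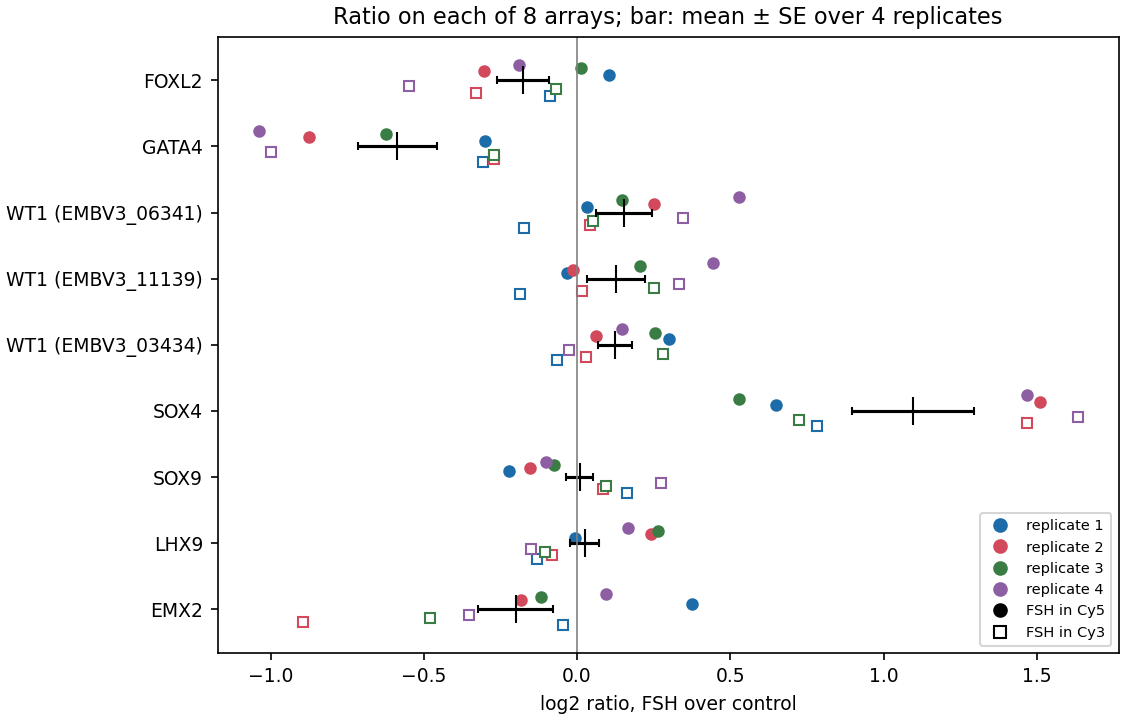
Log2 ratio of FSH over control on each of the 8 arrays (horizontal axis) for the 9 member probes (rows), in the colour of its replicate, filled where FSH was in Cy5 and open where it was in Cy3; bars give the mean ± SE over 4 replicates. All SOX4 points lie above 0 and all GATA4 points below 0, while the filled and open points of SOX9 fall on opposite sides of 0.

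EMX2, a homeobox factor of early gonad formation, had levels of 10.31, 9.52, 9.12 and 9.92 log2 intensity in FSH replicates 1 to 4, against 10.15, 10.06, 9.42 and 10.05 in control replicates 1 to 4. The groups overlapped, and the culture with FSH was higher in replicate 1 and lower in the other 3. The ratios of FSH over control were 0.16, -0.54, -0.30 and -0.13, and their mean was -0.20 ± 0.12 (SE, n = 4), with a 95% interval of -0.52 to 0.12 and an adjusted p of 0.593 in limma. Without replicate 3 it was -0.17, without replicate 1 it was -0.32 and without replicate 2 it was -0.09.

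The dye order mattered for EMX2. The ratio averaged 0.04 with FSH in Cy5 and -0.44 with FSH in Cy3, and the dye term was called with an adjusted p of 4.70e-04 in limma. The dye term was called for 4 of the 9 member probes, EMX2, SOX9, LHX9 and 1 of the WT1 probes, against 58.8% of all tested probes. Arrays of 1 dye order share a slide number in their deposited names, so dye and slide cannot be told apart. EMX2 signals were 3.44 to 11.1 times the threshold in FSH channels and 3.37 to 10.6 times in control channels.

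FOXL2, the forkhead factor that keeps granulosa identity, was dim on its 1 probe, which does not show that its transcript was scarce. Its raw signal was 0.917 to 1.13 times the negative control threshold in FSH channels and 0.982 to 1.23 times in control channels, and it exceeded the threshold in 5 of 8 FSH channels and 7 of 8 control channels. Levels were 6.94, 6.75, 6.79 and 6.83 log2 intensity in FSH replicates 1 to 4, against 6.93, 7.06, 6.82 and 7.20 in control replicates 1 to 4. The groups overlapped. The ratio of FSH over control was 0.01, -0.32, -0.03 and -0.37, which averaged -0.18 ± 0.09 (SE, n = 4), with a 95% interval of -0.40 to 0.05 and an adjusted p of 0.498 in limma. Without replicate 3 it was -0.23, without replicate 4 it was -0.11, and with a normexp offset of 0 it was -0.32. Since compression near background pulls ratios toward 0, this interval does not bound the change of the transcript.

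**Figure D4:**
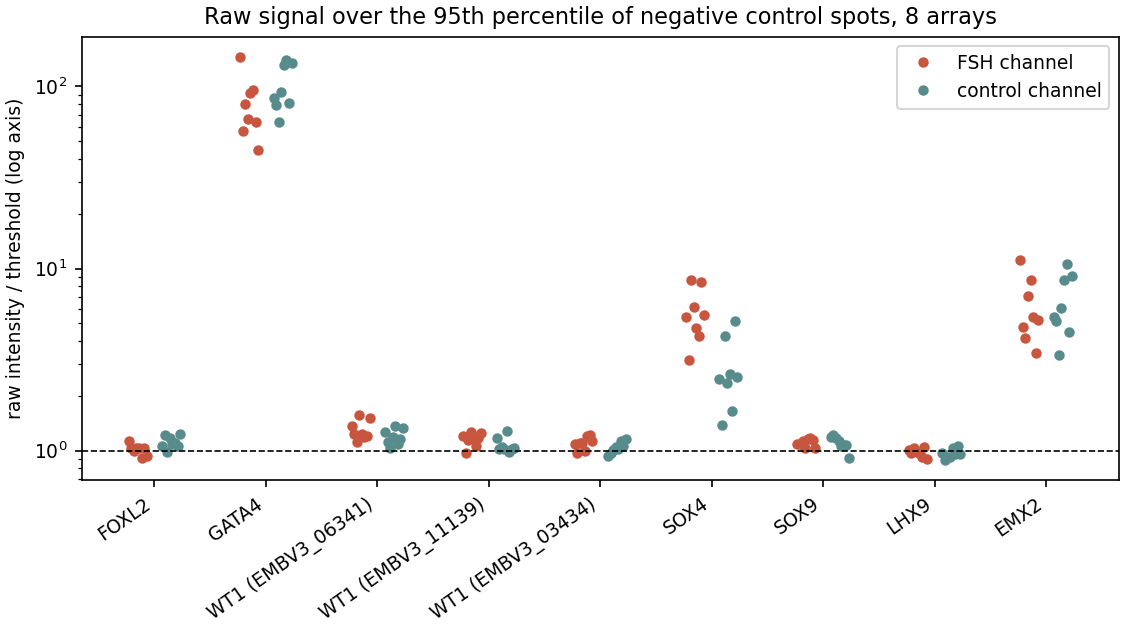
Raw intensity divided by the 95th percentile of the negative controls of its own array and channel (vertical log axis), 8 FSH and 8 control channels for each of the 9 member probes, with the dashed line at 1. GATA4 lies far above the line, SOX4 and EMX2 lie above it in every channel, and FOXL2, WT1, SOX9 and LHX9 scatter about or just above it.

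SOX9, the Sertoli cell factor, had levels of 6.94 to 7.06 log2 intensity in FSH cultures and 6.86 to 7.09 in control cultures. All lay near the negative controls and the groups overlapped, although the probe exceeded the threshold in 8 of 8 FSH channels and 7 of 8 control channels. The ratio was -0.03, -0.04, 0.01 and 0.09 in replicates 1 to 4, which averaged 0.00816 ± 0.04 (SE, n = 4), with a 95% interval of -0.11 to 0.12 and an adjusted p of 0.967 in limma. On single arrays the sign followed the dye: -0.22 to -0.07 on the 4 arrays with FSH in Cy5 and 0.08 to 0.27 on the 4 with FSH in Cy3 (dye term, adjusted p = 0.00277). Without replicate 3 the mean ratio was 0.00741. Of the Sertoli markers, DMRT1 and DHH were dim with ratios of 0.05 each, while CLDN11, a tight junction gene also used as a Sertoli marker, was bright and had a ratio of -0.56 ± 0.19 (SE, n = 4; adjusted p = 0.371 in limma).

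WT1, a zinc-finger factor of early granulosa cells, was measured by 3 probes, all dim. In FSH replicates 1 to 4 the brightest of them had levels of 7.21, 7.10, 7.05 and 7.66 log2 intensity, against 7.28, 6.96, 6.95 and 7.22 in control replicates 1 to 4. Its ratio of FSH over control was 0.15 ± 0.09 (SE, n = 4; adjusted p = 0.587 in limma), and those of the other WT1 probes were 0.13 ± 0.10 (adjusted p = 0.673) and 0.12 ± 0.05 (adjusted p = 0.467). All 3 means were above 0. Only the third was above 0 in all 4 replicates, with ratios of 0.12, 0.05, 0.27 and 0.06. Without replicate 3 the ratios were 0.17, 0.09 and 0.07, without replicate 4 they were 0.06, 0.04 and 0.14, and without replicate 1 they were 0.23, 0.21 and 0.12. With a normexp offset of 0 they were 0.23, 0.22 and 0.22, and with no background correction the third was 0.07.

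LHX9, a LIM homeobox factor of gonad formation, was the dimmest member. It exceeded the threshold in 3 of 8 FSH channels and 2 of 8 control channels. Its levels ran from 6.66 to 6.86 log2 intensity in FSH cultures and from 6.59 to 6.81 in control cultures, and the groups overlapped. The ratio of FSH over control was 0.02 ± 0.05 (SE, n = 4; adjusted p = 0.892 in limma), and it was 0.00598 without replicate 3, 0.00608 without replicate 2, 0.06 without replicate 1 and 0.06 with a normexp offset of 0. With median centring in place of loess it was 0.04.

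Over the members, the same sign in all 4 replicates was seen for 3 of 9 probes, SOX4, GATA4 and 1 WT1 probe, against 20.3% of all tested probes. The same sign on all 8 arrays was seen for 2 of 9, SOX4 and GATA4, against 5.87%. Levels of FSH and control cultures did not overlap for 0 of 9, against 2.98%. With 9 probes, of which 3 belong to 1 gene, these counts describe the members and test nothing. The median ratio of the 7 member genes was 0.00816, against -0.00171 for all tested probes.

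Other factors of gonadal lineage and of the GATA and SOX families were given as a list of 46 genes, of which 31 were tested. Of these, 16 had a ratio above 0 and 15 below 0, with a median of 0.00605 (0.00535 without replicate 3), and 0 passed the adjusted threshold in the fit to replicate means; with the replicate block and dye term 1 rose, NR5A2, and 1 fell, FOXO1, where 3.41% of all tested probes were called. NR5A2, a nuclear receptor needed for ovulation in mice, had a mean level of 12.61 log2 intensity in FSH cultures and 11.92 in control cultures, and its ratio was 0.69 ± 0.08 (SE, n = 4; adjusted p = 0.204 in limma, 0.0104 with the block and dye term). The other tested NR5A2 probes disagreed, with ratios of -0.18 ± 0.23 and -0.10 ± 0.15 (SE). FOXO1, a forkhead factor that FSH signalling holds in check in rodent granulosa cells, had a ratio of -0.62 ± 0.12 (SE, n = 4; adjusted p = 0.239, and 0.0143 with the block and dye term).

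RSPO1, a secreted activator of WNT signalling, had a ratio of 0.39 ± 0.13 (SE, n = 4, adjusted p = 0.361 in limma). It was dim, at a mean of 6.86, and exceeded the threshold in 7 of 8 FSH channels and 1 of 8 control channels. RSPO1 thus passed the filter only through FSH cultures, and these counts are no support for a difference. NR2F2, a nuclear receptor of stromal and theca cells, had -0.36 ± 0.12 (adjusted p = 0.375), and its other probes -0.22 ± 0.08 and 0.03 ± 0.05 (SE). Of the other SOX genes tested, SOX5, SOX6, SOX13, SOX17 and SOX18 had ratios between -0.06 and 0.11, all near background. GATA2 and GATA3 had ratios of -0.08 and 0.00605.

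Genes described as targets of FOXL2, GATA4, GATA6, WT1 or SOX9 in gonadal cells formed a list of 25, of which 24 were tested. Of these, 13 had a ratio above 0 and 11 below 0, with a median of 0.08 (0.05 without replicate 3). Of the 24, 0 passed the adjusted threshold in the fit to replicate means, and with the replicate block and dye term 3 rose and 2 fell, where 3.41% of all tested probes were called. That share is over mostly dimmer probes: 11 of the 24 had a mean above 9 log2 intensity, against 8799 of the 36531 tested. Both lists were chosen with earlier results of these data known, so their counts describe them and test nothing. INHBB, the beta B subunit of inhibin and activin, had a ratio of 0.73 ± 0.13 (SE, n = 4; adjusted p = 0.224 in limma, 0.0131 with the block and dye term). KITLG, the kit ligand that supports the oocyte, had 0.22 ± 0.04 (adjusted p = 0.235; 0.0666 with the block and dye term). IGFBP5, an IGF-binding protein, had 0.36 ± 0.08 (adjusted p = 0.274; 0.0379). PLA2G4A, a phospholipase that frees arachidonic acid, had -0.58 ± 0.13 (adjusted p = 0.269; 0.0269). The other calls with the block and dye term were CYP19A1, the aromatase of estradiol synthesis, and PTGS2, a prostaglandin synthase. CYP19A1 had 0.78 ± 0.20 (adjusted p = 0.299 in limma, 0.0309 with the block and dye term). PTGS2 had -1.06 ± 0.33 (adjusted p = 0.338 in limma, 0.0494 with the block and dye term). In replicate 3 the ratios of CYP19A1 and PTGS2 were 0.22 and 0.08. Other probes of CYP19A1 gave 0.32 ± 0.16 and 0.04 ± 0.07, and the other tested PTGS2 probe, dim at a mean of 6.76, gave -0.22 ± 0.06 (SE).

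**Figure D5:**
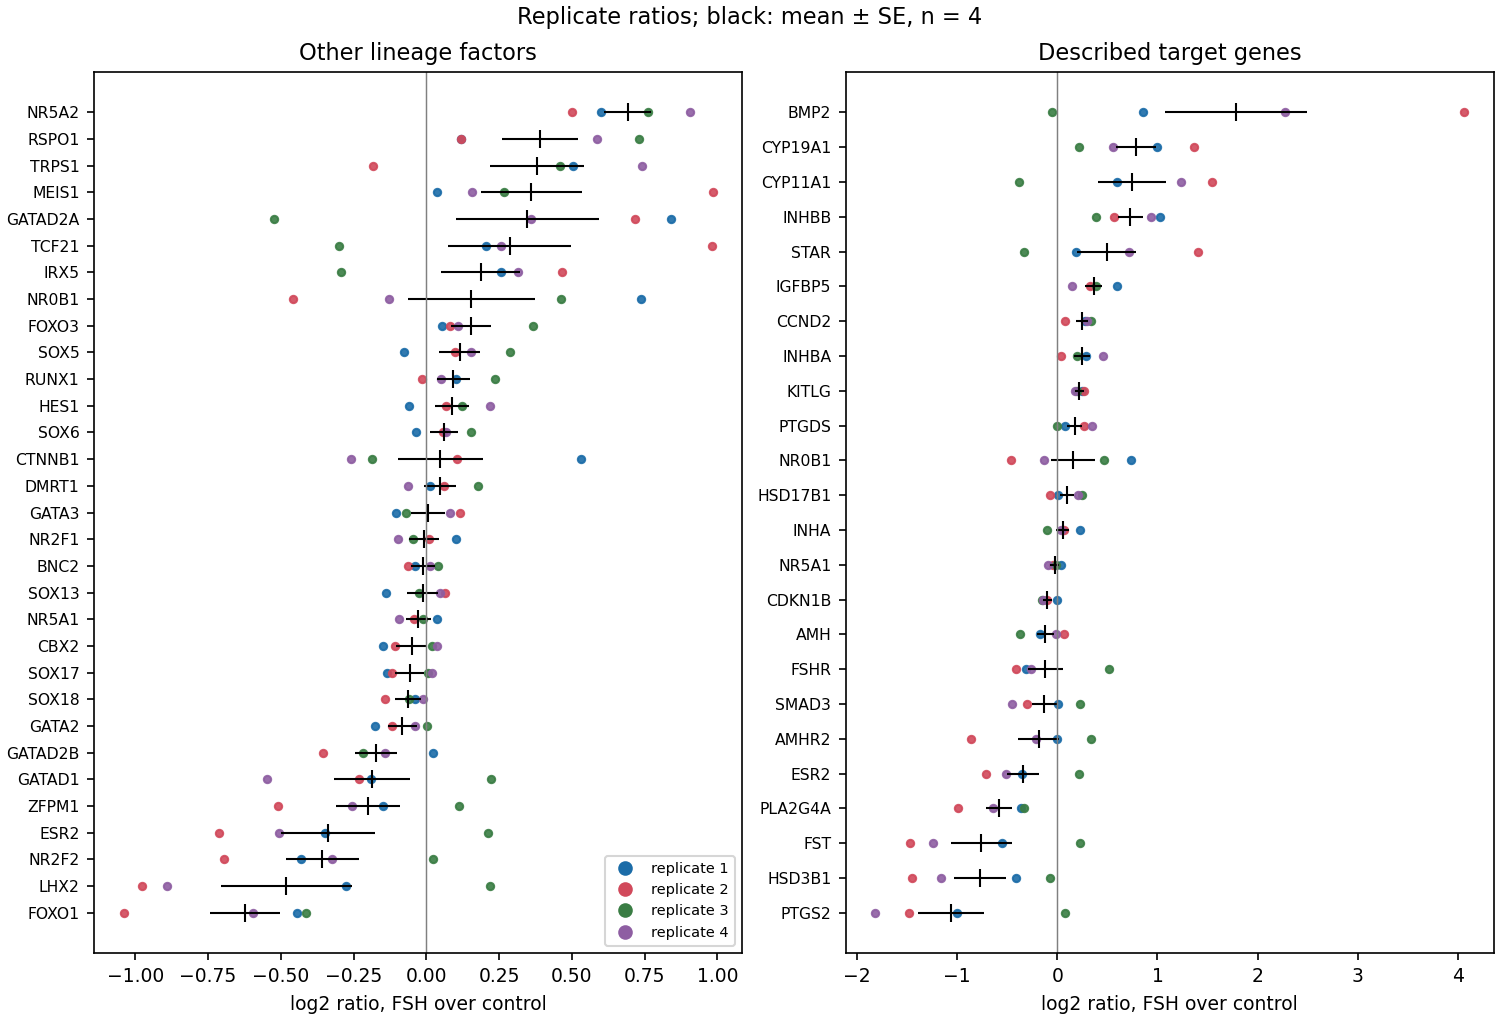
Log2 ratios of FSH over control for the tested genes of both lists, other lineage factors (left) and described target genes (right), with 1 coloured point per replicate and black bars for the mean ± SE (n = 4). Most lineage factors lie near 0, with NR5A2 at 0.69 and FOXO1 at -0.62, and in the target list genes lie on both sides of 0.

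In these bulk cultures, fewer cells of a type and less RNA per cell cannot be told apart. Markers of other cells moved with the groups in part, beside SOX4 and GATA4. The summed level of 5 immune markers was 9.82 to 11.61 log2 intensity in FSH cultures and 9.50 to 10.93 in control cultures, with 4 of 5 ratios above 0 and the FSH culture higher in 4 of 4 replicates. Single genes differed. TYROBP had a ratio of 0.33 ± 0.06 (SE, n = 4, adjusted p = 0.244 in limma, 0.0356 with the block and dye term). CD14 had -0.10 ± 0.05 and was higher in 0 of 4 replicates. In replicates 1 to 4, PTPRC had -0.02, 0.02, 0.10 and 1.35, and CD68 had 0.52, 0.89, -0.16 and -0.36. The summed level of 6 theca markers was 12.43 to 13.05 in FSH cultures and 12.71 to 13.51 in control cultures, lower in 4 of 4 replicates, while 2 of 6 ratios were above 0. ACTA2, at a mean of 12.59, was the brightest of the 6 and PTCH1 the next at 9.20, so the sum is mostly ACTA2. INSL3, detected in every channel, had a ratio of 0.10 ± 0.12 (SE, n = 4). Of the other theca genes, CYP17A1 was near the negative controls and LHCGR exceeded the threshold in 2 of 8 FSH and 2 of 8 control channels. ACTA2 had a ratio of -0.38 ± 0.08 (SE, n = 4, adjusted p = 0.251 in limma, 0.0301 with the block and dye term). That fit called 3.41% of all tested probes. The 5 stroma markers were detected in every channel, with sums of 14.08 to 15.38 in FSH cultures and 13.28 to 14.93 in control cultures, higher with FSH in 2 of 4 replicates. Of their ratios 5 of 5 were above 0 (4 of 5 without replicate 3), from COL3A1 at 0.00168 ± 0.22 to DCN at 0.43 ± 0.18 (SE, n = 4). Endothelial markers summed to 9.17 to 9.47 in FSH cultures and 8.97 to 9.51 in control cultures, higher with FSH in 3 of 4 replicates, with 2 of 4 ratios above 0. Among them KDR, a VEGF receptor, had a ratio of 0.81 ± 0.27 (SE, n = 4, adjusted p = 0.359 in limma) and was higher in 4 of 4 replicates. It was dim, at a mean of 7.28, and exceeded the threshold in 8 of 8 FSH channels and 3 of 8 control channels. KDR thus passed the filter only through FSH cultures, and these counts are no support for a difference. Ratios were above 0 for 1 of 3 surface epithelium markers and for 4 of 4 oocyte markers, the oocyte genes all dim. The part of these cells in the SOX4 and GATA4 results was not tested.

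Genes whose level followed a member most closely over the 8 cultures were taken from 4905 genes with a mean above 9 log2 intensity, by Pearson's r, as a description with no p, since the 8 cultures share arrays and groups. For SOX4 they were PTPRU, a receptor tyrosine phosphatase (r = 0.985), PSMB9, an immunoproteasome subunit (r = 0.983), and GNB1, a G protein beta subunit (r = 0.978), with ratios of FSH over control of 1.36, 0.83 and 0.20. For GATA4 they were ACTR10, TBK1 and ODF2L (r = 0.990, 0.977 and 0.977), with ratios of -0.54, -0.33 and -0.62. For EMX2 they were TDP2, SPRY1 and BMS1 (r = 0.933, 0.927 and 0.910), with ratios of -0.07, -0.43 and -0.10. SOX4 itself passed the limit of 9 only through its FSH cultures, since its mean in control cultures was 8.56.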

How the data were processed

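The authors deposited scanner tables with the raw mean intensity of each spot and its local median background at both wavelengths, neither subtracted nor normalised, per the file headers; per the labels' protocols, total RNA went through 2 T7 amplification rounds and was coupled to Cy3 or Cy5. Probes were named through the platform annotation, with 1524 symbols updated through RefSeq, and no probe coordinates are printed because no build is named. A deposited table of ratios over the whole series was not used.

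Intensities were corrected with normexp (offset 50) and loess within arrays (limma 3.58.1, statmod 1.5.0, R 4.3.3), and log2 ratios were turned to FSH over control. Same-numbered arrays were averaged to 4 replicate means and tested against 0 by limma's moderated two-sided test (lmFit, eBayes), Benjamini-Hochberg adjusted across 36531 probes. Levels are log2 intensities after Aquantile scaling. The pairing rests on the replicate numbers: same-numbered arrays correlated at 0.352 to 0.610, others of opposite dye at -0.398 to 0.285. The alternative fit took the replicate as a random block (correlation 0.72) with a dye term. Dye terms given for single members, and their share over all probes, came from another limma fit. It tested the difference between dye orders in each of the 4 replicates against 0, with its own Benjamini-Hochberg adjustment. A gene's brightest tested probe stood for it in lists. From each list the 4 genes of lowest p were named, and for each member above 9 log2 intensity the 3 genes most like it; further list genes and markers were named after their values were seen. The members and lists were chosen with earlier results of these data known. Figures used Python 3.11.15, pandas 2.3.3 and matplotlib 3.10.9.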

Additional observations from a re-analysis of the deposited data

Results flagged for a closer look

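EMX2 in control replicate 3, at 9.42 log2 intensity, lay far below the other 3 control cultures (10.05 to 10.15), with a gap above Dixon's critical value for 4 samples. It was 1 of 27 groups of 4 examined this way, and chance flags about 1 in 20 groups. Replicate 3 also had the lowest EMX2 level among the FSH cultures, 9.12.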

How the results depend on the processing

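The number of probes past the threshold was 0 over replicate means and also without any 1 replicate, but 1244 in the fit with a replicate block and a dye term, 1426 with a replicate block and no dye term, and 2610 with a replicate block and a dye term over replicates 1, 2 and 4, a setting chosen after the data were seen. SOX4 kept a ratio of 1.10 and passed in both replicate block fits (adjusted p = 0.0125 and 0.00675), and in the third at 1.25 (0.00655). GATA4, at -0.59, passed only in the replicate block fit without a dye term (adjusted p = 0.0267). The block changed no other call among the members. SOX9 changed sign without background correction (-0.00521), with median centring (-0.0186) and without replicate 4 (-0.0179); leaving out 1 replicate gave -0.0179 to 0.0226. The cause was not tested, and each of these 3 values was smaller than its SE. At the 99th percentile of the negative controls, FOXL2 was detected in 7 channels in place of 12 of 16, the dimmest WT1 probe in 8 in place of 12, and LHX9 in 0 in place of 5. The other members kept their sign under all alternatives run. Low signal over background limits FOXL2, WT1, SOX9 and LHX9, and 4 replicates limit all members. Under the stricter filter, which asks for detection on all 8 arrays, FOXL2, LHX9 and the dimmest WT1 probe were not tested.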
